A study of Mus musculus with 8 samples.

Results

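The genes described here are 39 interferon-stimulated genes, read in RNA-seq libraries of mouse distal colon epithelium. They were taken by symbol from a table of 54141 Ensembl gene IDs, and all 39 were found and passed the filter on low counts, which left 16132 genes for testing. The 8 libraries form 2 groups of 4. One is wild type (WT) and the other carries a homozygous mutation of Degs2 (Degs2_KO), both on a c57bl6/j background. Distal colon was cleared of stool, cut and shaken in PBS with EDTA, and the released cells were passed through a strainer, so the cells were enriched for epithelium and not sorted. DEGS2 is a sphingolipid desaturase and hydroxylase that makes phytoceramide. The sources used here give neither the kind of Degs2 allele nor the age and sex of the mice. They also do not say that each library was a separate mouse, and p-values then reflect only how much these libraries vary, some of which may be technical. In bulk RNA, fewer cells of a type and less RNA per cell cannot be told apart.

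Interferons are secreted proteins that switch on a shared programme of genes in the cells that bind them. Type I interferons (alpha and beta) and type III interferons (lambda) act through a complex that includes STAT2 and IRF9 and binds the interferon-stimulated response element. Type II interferon (gamma) acts mainly at the gamma-activated site and induces IRF1, which binds elements much like the former. Ifit and Oas genes are classic antiviral targets. The guanylate-binding proteins (Gbp), the immunity-related GTPases (Irg) and the genes Cxcl9 and Ido1 are known as strong targets of interferon gamma. Intestinal epithelium is known to respond to the lambda and gamma types and to keep some of the programme on in health.

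The promoter windows show how often antiviral and interferon-gamma type members carry each of these elements. RefSeq promoters on GRCm38.p6, each of 300 bases from 250 before to 50 after the start site that RefSeq gives, matched 29 of the 39 members. Oas2, Dhx58, Zbp1, Usp18, Mx2, Rtp4, Parp9, Parp14, Ido1 and Iigp1 were not matched. The core of the response element was searched on both strands as GAAA, any 2 bases and GAAA, and 19 of 29 member windows held it (65.5%), against 3.49% of 27025 promoters. It stood in 4 of 6 antiviral windows and in 6 of 7 interferon-gamma type windows. The gamma-activated site, searched on both strands as TTCNNNGAA, stood in 8 of 29 (27.6%) against 8.47% of all promoters, namely in 2 of 6 antiviral and 3 of 7 interferon-gamma type windows. Overlapping matches were counted singly. A match is a run of letters and not a measured binding site.

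The stretches below come from the 3 antiviral and the 3 interferon-gamma type members of highest level per length among those whose window holds the core. They are written 5′ to 3′ on the strand of the gene, with every match to the response element core in capitals. The order is antiviral first.
Oas1a: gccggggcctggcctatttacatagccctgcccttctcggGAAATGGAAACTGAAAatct
Ifit1: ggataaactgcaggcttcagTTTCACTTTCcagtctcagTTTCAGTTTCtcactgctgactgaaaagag
Oas3: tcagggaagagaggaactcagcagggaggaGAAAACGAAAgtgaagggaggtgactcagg
Irgm2: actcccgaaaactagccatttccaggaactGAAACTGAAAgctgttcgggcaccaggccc
Igtp: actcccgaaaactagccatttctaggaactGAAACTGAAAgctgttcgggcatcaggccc
Irgm1: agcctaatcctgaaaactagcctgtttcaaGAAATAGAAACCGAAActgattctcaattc
The Oas1a stretch lies at chr5:120907526-120907585 on the minus strand and joins 2 overlapping cores. The Ifit1 stretch, at chr19:34640765-34640833 on the plus strand, holds 2 separate cores, both reading as the element on the opposite strand. Oas3 has 1 core at chr5:120777705-120777764 on the minus strand. Among the interferon-gamma type genes, Irgm1 has 2 overlapping cores at chr11:48871421-48871480 on the minus strand. Irgm2 (chr11:58214883-58214942, plus strand) and Igtp (chr11:58199492-58199551, plus strand) have 1 core each. Of the 60 bases in the Igtp and Irgm2 stretches, 58 are the same.

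The members also share positions in the genome. On GRCm38, the assembly also called mm10, Ifit2, Ifit3 and Ifit1 lie, with other genes of the family, on chromosome 19 between 34550694 and 34650009. Oas2, Oas3 and Oas1a lie on chromosome 5 between 120730333 and 120907521, and Oasl2 lies apart on the same chromosome. Gbp7, Gbp3 and Gbp2 lie on chromosome 3 between 142530342 and 142638008. Cxcl9 and Cxcl10 lie close together on chromosome 5 between 92321347 and 92348889. In the GENCODE annotation Irgm2 starts inside Igtp on the same strand, with 7974 bases in common. The RefSeq promoter window of Irgm2, at chr11:58214727-58215026, lies beyond the end of Igtp at 58207591, so the overlap depends on the annotation. The values of this pair are uncertain: the authors' counting could have split or shared their fragments. The same holds for the close copies Ifit3 and Ifit3b, and Oas1a and Oas1g. Parp9 and Dtx3l overlap by 682 bases on opposite strands, and the sources used here do not say if strand was used in counting.

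As a check of the labels, Degs2 averaged 122 ± 20.1 CPM (the count as a share of the TMM-scaled library total) across WT libraries and 58.2 ± 9.08 CPM across Degs2_KO libraries (mean ± SD, n = 4 each). All 4 Degs2_KO libraries lay below all 4 WT libraries (exact 2-sided permutation test, p = 0.0286, the smallest that 70 assignments allow). Its transcripts were thus still counted in the mutant group. Depth was 32.8 to 49.8 M fragments per library after the deposited scaling was undone, lowest in WT replicate 1. Summed over 12 epithelial markers, CPM lay between 15571 and 21395 in WT and between 15739 and 22705 in Degs2_KO. Part of this range was 1 gene, Car1. It was at 6179 CPM in WT replicate 1 and 6570 CPM in Degs2_KO replicate 3, against 522 to 1941 CPM in the other 6 libraries. Epcam lay between 1704 and 2006 CPM over the 8 libraries. Each library was also given the median over the 12 markers of log2 CPM minus the gene's mean over the 8 libraries. This epithelial level was lowest in WT replicate 3 (-0.16) and highest in WT replicate 4 (0.27). Those libraries were also most often lowest and highest for the members, and a link was not tested. WT replicate 1 and Degs2_KO replicate 3 stood apart in genes of colon position. Their sums over 5 posterior gut genes were 143 and 140 CPM, against 363 to 485 CPM in the other 6 libraries, and Hoxd12 was listed at 0 in both. Their sums over 10 genes of small intestine and proximal gut were 474 and 518 CPM, against 75.4 to 229 CPM in the other 6. Among the other 6, this sum was lowest in WT replicate 2 (75.4), WT replicate 3 (91.6) and Degs2_KO replicate 4 (127). It was highest there in WT replicate 4 (229). The posterior sums of these 4 libraries were 482, 485, 365 and 363 CPM. The part of position in the member values was not tested. Without WT replicate 1 and Degs2_KO replicate 3, 29 members were higher in Degs2_KO and 10 lower. In that fit 1 member (Cxcl9) had an unadjusted p under 0.05 by edgeR, against 4.01% of all genes, and 0 passed the adjusted test.

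Between the genotypes, no interferon-stimulated gene passed the test. In the quasi-likelihood test of edgeR, adjusted by Benjamini-Hochberg over all genes, 0 of 39 members passed at 0.05, and 0.0% of all tested genes did. The smallest adjusted p of a member was 0.9996. At an unadjusted p under 0.05 the count was 0 of 39 by edgeR, 0 of 39 by DESeq2 and 0 of 39 by limma-trend, against 1.13% of all genes by edgeR. The CPM ranges of the 2 groups overlapped for all 39 members, while 1.05% of all genes had groups that did not overlap. Fitted values were higher in Degs2_KO for 20 members and lower for 19, and the median log2 fold change was 0.0018. Over all 16132 genes it was -0.0069, from 7648 higher and 8484 lower genes. The even split of the members did not hold in other fits. It was 34 higher and 5 lower with limma-trend, 36 and 3 without WT replicate 4, 33 and 6 without WT replicate 1, 34 and 5 without Degs2_KO replicate 4, and 9 and 30 without WT replicate 3.

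ID numbers in the sample descriptions adjoin for 3 pairs of a WT and a Degs2_KO library (WT replicate 1 with Degs2_KO replicate 1, 2 with 3, and 3 with 4), and the labels do not say what these numbers mark. Within all 3 of these pairs, 20 of 39 members (51.3%) were higher in Degs2_KO, compared with 5.49% of all genes, and so were 1 of 7 antiviral and 7 of 9 interferon-gamma type members. With the pairs as a block in the fit of these 6 libraries, 36 members were higher and 3 lower, and 10 of 39 had an unadjusted p under 0.05 by edgeR, against 79 of 16104 genes (0.491%). No member passed the adjusted test there either. This fit also lacked WT replicate 4 and Degs2_KO replicate 2, which have no such pair. Without WT replicate 4 alone and with no block, 36 members were likewise higher and 3 lower. In that fit 1 member had an unadjusted p under 0.05 by edgeR, against 0.987% of all genes. The part of the block apart from the missing libraries was not tested. Over all genes tested, deviations from the group means did not run together within these pairs. That check cannot decide if the numbers pair the libraries. Its highest correlation, 0.75, was between WT replicate 1 and Degs2_KO replicate 3, the 2 libraries apart in colon position, and 2 of the 3 pairs hold 1 of them. The main fit used no pairs.

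These counts do not show that the genotypes were alike. The adjusted test of edgeR did not call Degs2 either, at a log2 fold change of -1.07 ± 0.15 (SE) and an adjusted p of 0.80. The members also varied widely between libraries. The median standard error of a member's log2 fold change was 0.38, against 0.16 over all genes. The 95% interval of the fold change stayed within 2-fold in either direction for 21 of 39 members and for 13213 of 16132 genes. Among antiviral members only Oas1a had so narrow an interval, from 0.758-fold to 1.46-fold.

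**Figure D1:**
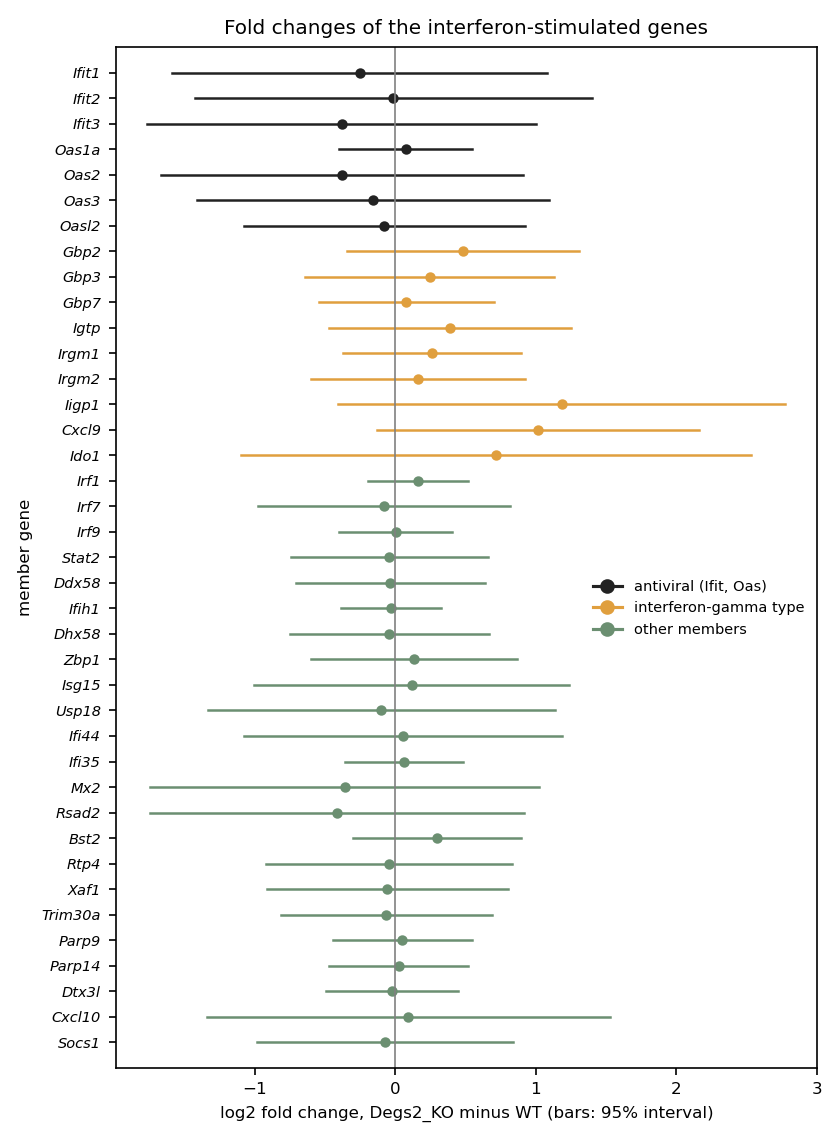
Fitted log2 fold change of each member, Degs2_KO minus WT (horizontal axis; points), with its 95% interval (bars), for antiviral (black), interferon-gamma type (orange) and other members (green). All 39 intervals include 0; 9 of 9 interferon-gamma type points lie to the right of 0 and 6 of 7 antiviral points to the left, although limma-trend puts 6 of 7 antiviral members to the right.

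The larger differences were between libraries within a group. The highest library exceeded the lowest by a median of 3.43-fold over the members, against 1.57-fold over all genes tested. WT replicate 3 was the lowest of the 8 libraries for 35 of 39 members (89.7%), compared with 16.2% of all genes. WT replicate 4 was the highest for 25 members (64.1%), compared with 17.0% of all genes. Degs2_KO replicate 1 was the highest for 9. For 34 members the 3 lowest libraries were WT replicates 2 and 3 and Degs2_KO replicate 4, which come from both groups.

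**Figure D2:**
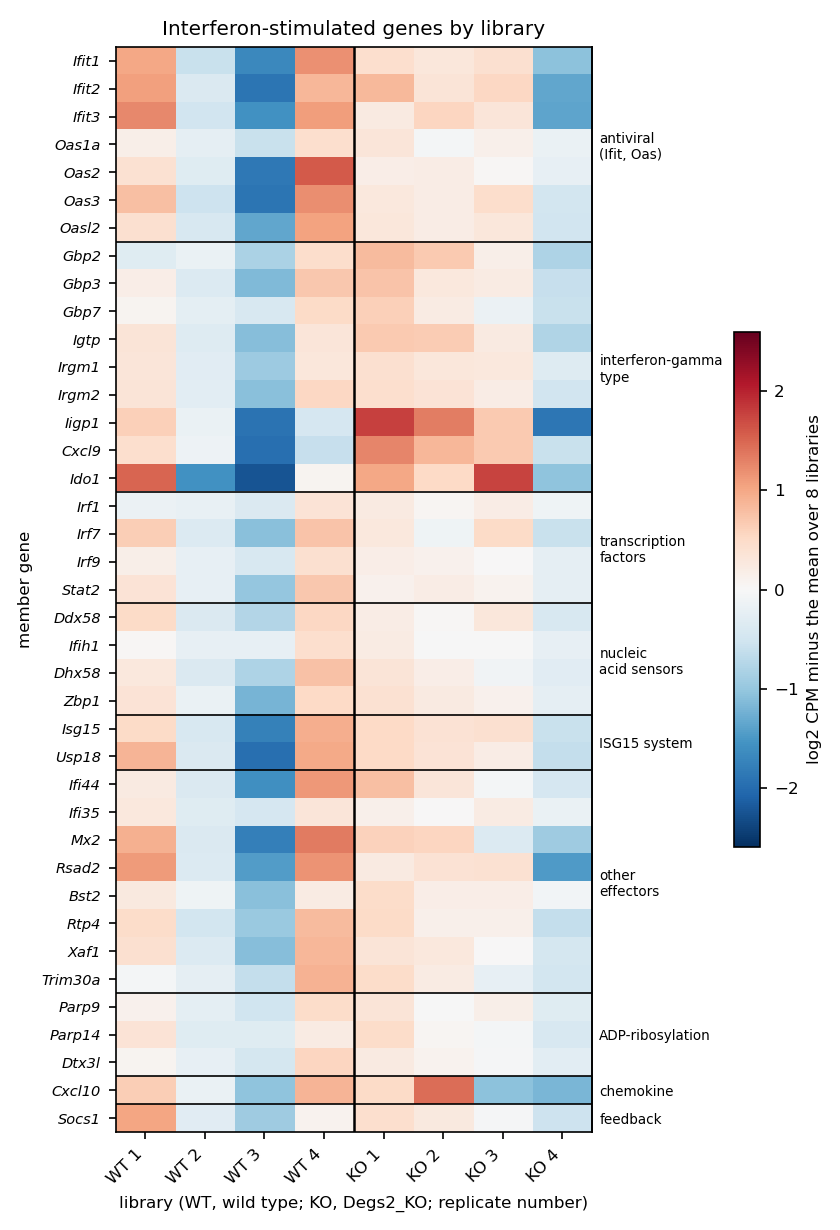
Each row is a member and each column a library; colour gives log2 CPM minus the gene's mean over the 8 libraries (red higher, blue lower), and roles are named at the right. The WT replicate 3 column is the lowest for 35 of 39 members and the WT replicate 4 column the highest for 25.

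The WT libraries were also further from each other than the Degs2_KO libraries. The SD of log2 CPM was larger in WT for 33 of 39 members (84.6%), compared with 9679 of all 16132 genes. Its median was 0.78 in WT and 0.42 in Degs2_KO over the members, and 0.23 and 0.20 over all genes. Among antiviral members it was larger in WT for 7 of 7, with medians of 1.36 and 0.41. Among interferon-gamma type members it was larger in WT for 5 of 9, with medians of 0.73 and 0.68. The difference in spread was not tested.

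Markers of other cell types were read beside these values. The summed level of 15 genes of T and NK lymphocytes, which sit between the epithelial cells of the gut, was 59.6, 20.1, 10.3 and 33.4 CPM in WT replicates 1 to 4. In Degs2_KO replicates 1 to 4 it was 31.6, 23.7, 46.4 and 17.2 CPM. The sum was lowest in WT replicate 3, followed by Degs2_KO replicate 4 and WT replicate 2, the same 3 libraries that were lowest for most interferon-stimulated members. This was not particular to lymphocytes. The sums over epithelial markers and over genes of small intestine and proximal gut had the same 3 lowest libraries. The myeloid, B lineage, fibroblast, endothelial and posterior gut sums did not. At the upper end the order was different, with the lymphocyte sum highest in WT replicate 1 and most members highest in WT replicate 4. None of the 15 lymphocyte genes was at 0 in all libraries, and none of the 14 tested had an unadjusted p under 0.05 between genotypes by edgeR. Of these 14, 6 were higher and 8 lower in Degs2_KO, with log2 fold changes from -0.66 to 0.39 and a median of -0.03. The 2 with the smallest p were both lower. Cd8b1, part of the CD8 receptor, had a log2 fold change of -0.66 ± 0.57 (SE). For Itgae, the integrin that holds lymphocytes to epithelium, it was -0.29 ± 0.34 (SE). The part of lymphocytes in the spread of the interferon-stimulated genes was not tested.

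The 13 myeloid genes summed to 30.6 to 41.6 CPM in WT and 27.9 to 47.1 CPM in Degs2_KO, with 4 of them under a mean of 0.1 CPM. The 6 fibroblast genes summed to 4.08 to 30.8 CPM in WT, highest in replicate 4, where most members were highest too, and to 1.29 to 15.9 CPM in Degs2_KO, with 2 of them under a mean of 0.1 CPM. Dcn, a collagen-binding proteoglycan of fibroblasts, contributed 15.3 CPM to the sum of WT replicate 4. The 6 genes of the B lineage summed to 0.48 to 1.88 CPM in WT and 0.58 to 0.94 CPM in Degs2_KO, and 0 of the 6 passed the filter. The 5 endothelial genes summed to 8.50 to 12.7 CPM and 5.48 to 8.59 CPM. The part of these cells in the results was not tested.

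Levels of the members were compared per kilobase of exon, as TMM CPM divided by exon length. The most abundant was Oas1a at 45.5 ± 9.90 CPM per kb (SD over 8 libraries), followed by Isg15 at 38.8 ± 17.8, Irf1 at 37.5 ± 6.43 and Irf7 at 37.0 ± 14.9 CPM per kb. These 4 did not differ beyond their spread. Oasl2 at 28.3 ± 13.0 and Ifit1 at 24.2 ± 14.02 CPM per kb came next. The chemokines, the enzyme gene Ido1 and the feedback inhibitor lay at the other end. Cxcl9 was at 0.32 ± 0.19, Ido1 at 0.70 ± 0.57, Cxcl10 at 0.87 ± 0.57 and Socs1 at 0.93 ± 0.40 CPM per kb. The last 3 of these were within each other's spread too.

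Among the antiviral members, Ifit proteins bind foreign RNA and block its translation. In WT replicates 1 to 4, Ifit1 was at 106, 35.8, 16.6 and 121 CPM, and in Degs2_KO replicates 1 to 4 at 72.6, 65.6, 71.2 and 25.4 CPM. The WT libraries held both the highest and the lowest values, and the Degs2_KO values lay inside that range. Group means were 69.99 ± 51.5 CPM for WT and 58.7 ± 22.4 CPM for Degs2_KO (SD, n = 4 each), and the fitted log2 fold change was -0.25 ± 0.59 (SE), with a 95% interval from 0.333-fold to 2.11-fold. Ifit2 and Ifit3 had log2 fold changes of -0.01 ± 0.62 and -0.38 ± 0.61 (SE), and both were highest in WT replicate 1 and lowest in WT replicate 3.

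The Oas enzymes are activated by double-stranded RNA and make short adenylate chains that switch on an RNA-degrading enzyme. Oas1a was the steadiest of them, at 93.6, 71.7, 56.0 and 113 CPM in WT replicates 1 to 4 and 104, 81.2, 92.6 and 74.3 CPM in Degs2_KO replicates 1 to 4. Its log2 fold change was 0.07 ± 0.21 (SE). Oas2 varied most among the antiviral members, with 45.1, 27.5, 9.35 and 102 CPM in WT and 38.5, 39.2, 34.7 and 29.2 CPM in Degs2_KO. The 4 Degs2_KO values lay close together, while WT replicate 4 was 10.9-fold above WT replicate 3. Oas2 had a log2 fold change of -0.38 ± 0.57 (SE).

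Oasl2, an Oas-like protein with ubiquitin-like domains, was the member of highest CPM. It was at 218, 121, 64.1 and 337 CPM in WT replicates 1 to 4 and at 199, 186, 201 and 116 CPM in Degs2_KO replicates 1 to 4. Again WT replicates 4 and 1 were high and WT replicate 3 low, and Degs2_KO replicates 1 to 3 lay between them. Its log2 fold change was -0.08 ± 0.44 (SE). For Oas3 it was -0.16 ± 0.55 (SE), with values from 12.9 to 109.9 CPM in WT and 34.2 to 65.5 CPM in Degs2_KO.

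**Figure D3:**
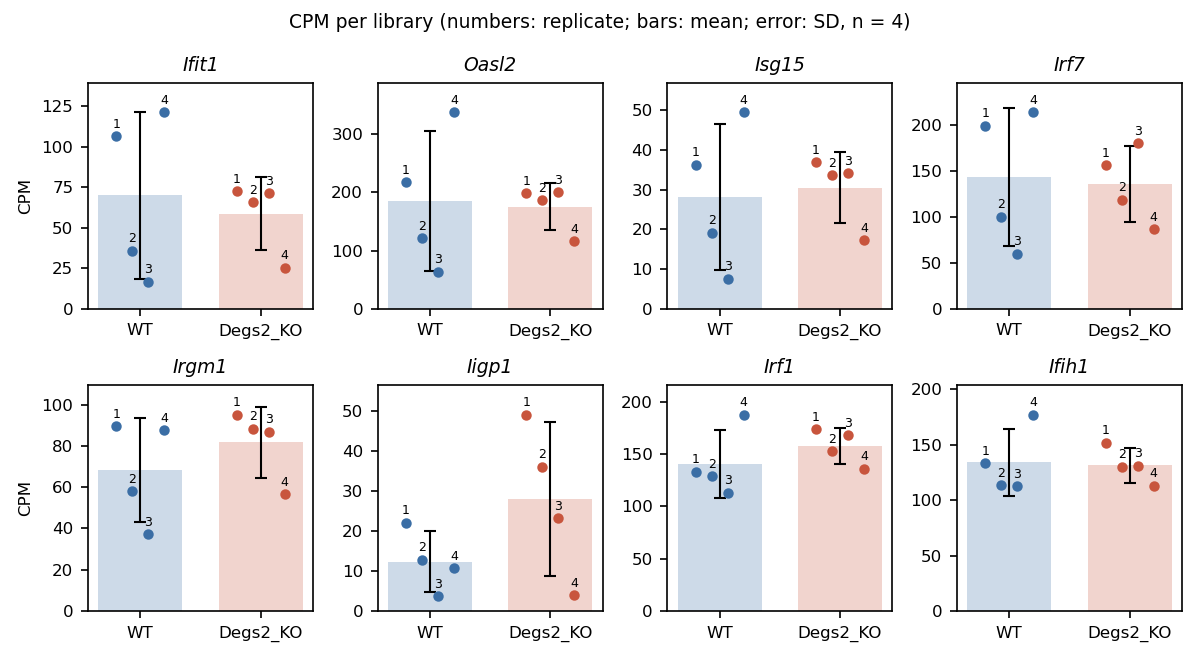
CPM of 8 members in each library (points, numbered by replicate), with the group mean (bars) and SD (error bars, n = 4). In Ifit1, Oasl2 and Isg15, 2 WT points lie low and 2 high, with WT replicate 3 the lowest of all and WT replicate 4 the highest; Iigp1 is highest in Degs2_KO replicate 1 at 49.2 CPM.

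Among the interferon-gamma type members, 9 of 9 had a fitted fold change above 0, though 0 of 9 passed the test, adjusted or not. The count above 0 fell to 7 without WT replicate 3 and to 8 without Degs2_KO replicate 1. The Irg proteins are GTPases that load onto vacuoles holding microbes, and Irgm1, Irgm2 and Igtp are their regulatory class. Irgm1 was at 89.4, 58.2, 37.1 and 87.8 CPM in WT replicates 1 to 4 and at 95.1, 88.3, 86.8 and 56.5 CPM in Degs2_KO replicates 1 to 4. For Irgm1 the log2 fold change was 0.26 ± 0.28 (SE). The values of 3 Degs2_KO libraries were near those of WT replicates 1 and 4, and the fourth was near WT replicate 2. Irgm2 was at 66.0, 43.7, 24.5 and 76.3 CPM in WT and 70.98, 66.8, 60.2 and 37.3 CPM in Degs2_KO, with a log2 fold change of 0.16 ± 0.34 (SE).

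Igtp, which overlaps Irgm2 in GENCODE, was at 31.5, 19.8, 11.6 and 31.0 CPM in WT replicates 1 to 4 and at 39.9, 39.6, 29.2 and 14.5 CPM in Degs2_KO replicates 1 to 4. Its 2 highest libraries were Degs2_KO replicates 1 and 2, and its log2 fold change was 0.39 ± 0.38 (SE). Iigp1 is an effector Irg protein that breaks the vacuole membrane. It was at 22.1, 12.9, 3.804 and 10.7 CPM in WT and at 49.2, 36.2, 23.3 and 3.90 CPM in Degs2_KO. Degs2_KO replicates 1 to 3 were above all WT libraries, while Degs2_KO replicate 4 was next to the lowest. The fitted log2 fold change of Iigp1 was 1.18 ± 0.70 (SE), the largest of the members, and the 95% interval of the fold ran from 0.753 to 6.86.

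The Gbp proteins coat microbes and their vacuoles. Gbp2 had a log2 fold change of 0.48 ± 0.36 (SE), Gbp3 of 0.25 ± 0.39 (SE) and Gbp7 of 0.08 ± 0.28 (SE). All 3 were highest in Degs2_KO replicate 1. Cxcl9, a chemokine that draws T cells, was low, with 1.07, 0.73, 0.20 and 0.53 CPM in WT replicates 1 to 4 and 1.901, 1.44, 1.27 and 0.53 CPM in Degs2_KO replicates 1 to 4. Its log2 fold change was 1.02 ± 0.51 (SE), and its unadjusted p of 0.0766 by edgeR's quasi-likelihood test was the smallest of the members. Without Degs2_KO replicate 4, 3 members (Cxcl9, Gbp2 and Iigp1) had an unadjusted p under 0.05, against 0.81% of all genes in that fit. Without WT replicate 1 there were 2 (Cxcl9 and Ido1), against 4.78% of all genes, and without WT replicate 4 there was 1 (Irf1), against 0.987%. None of these fits gave a member with an adjusted p under 0.05.

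Ido1 encodes an enzyme that breaks down tryptophan. It was at 2.46, 0.29, 0.18 and 0.90 CPM in WT replicates 1 to 4 and at 1.74, 1.24, 2.93 and 0.42 CPM in Degs2_KO replicates 1 to 4. Unlike the other members of its type, it was highest in Degs2_KO replicate 3 and WT replicate 1, which are the 2 libraries with low posterior gut genes. The same 2 libraries had the highest lymphocyte sums, and the part of either in the Ido1 values was not tested. Its log2 fold change was 0.72 ± 0.80 (SE).

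Set against each other, the antiviral members had a median log2 fold change of -0.16 (1 of 7 higher in Degs2_KO) and the interferon-gamma type members a median of 0.39 (9 of 9 higher). For the other 23 members the median was -0.03, with 10 higher. The medians of the 2 types differed by 0.55, and no p is given for a value over genes chosen with results known. Under the block on adjoining ID numbers they were 0.41 and 0.49, a difference of 0.081. That fit also lacked WT replicate 4 and Degs2_KO replicate 2, and the part of the block alone was not tested. The antiviral direction changed between fits. With limma-trend the antiviral median was 0.11 and 6 of 7 were higher, while the interferon-gamma type median stayed at 0.39. Left out singly, WT replicate 1, WT replicate 4 and Degs2_KO replicate 4 also turned the antiviral median positive, to 0.033, 0.25 and 0.002. Without WT replicate 3 it was -0.49.

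**Figure D4:**
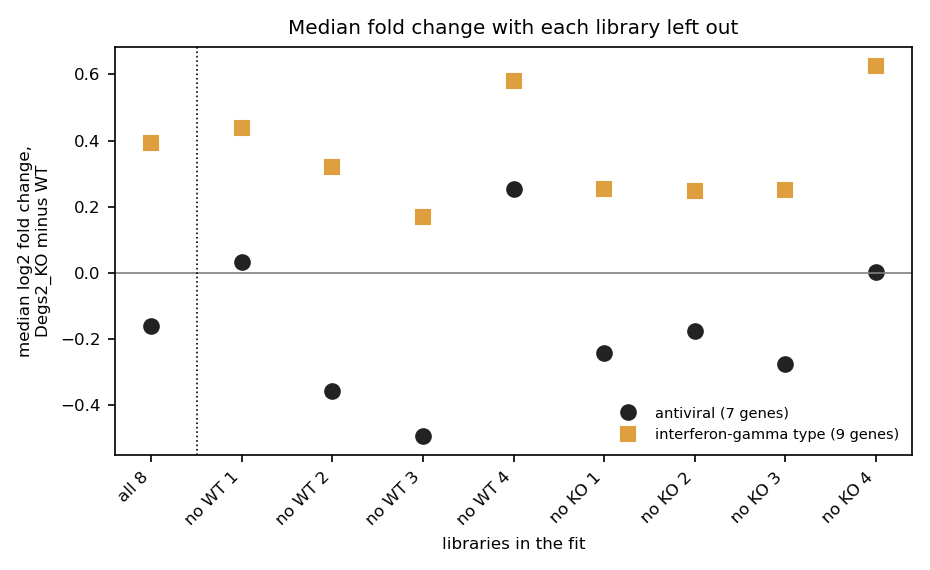
Median log2 fold change (Degs2_KO minus WT, vertical axis) of the 7 antiviral (black circles) and 9 interferon-gamma type members (orange squares), with all 8 libraries and with each library left out. The interferon-gamma type median stays between 0.17 and 0.63, and the antiviral median ranges from -0.49 to 0.25, changing sign when WT replicate 1, WT replicate 4 or Degs2_KO replicate 4 is left out.

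Library by library, the 2 types moved together but not equally. Each library was given the median over the genes of log2 CPM minus the gene's mean over the 8 libraries. For the antiviral genes this level was 0.77, -0.42, -1.68 and 1.07 in WT replicates 1 to 4 and 0.29, 0.20, 0.31 and -0.49 in Degs2_KO replicates 1 to 4. For the interferon-gamma type genes it was 0.33, -0.27, -1.10 and 0.31 in WT and 0.74, 0.45, 0.23 and -0.60 in Degs2_KO. Both types were above 0 in the same 5 libraries and below 0 in the same 3. WT replicate 4 had the highest antiviral level, while Degs2_KO replicate 1 had the highest interferon-gamma type level.

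The gap between the types showed the same. The level of the interferon-gamma type minus that of the antiviral genes was negative in WT replicates 1 and 4 (-0.45 and -0.76) and positive in WT replicates 2 and 3 (0.16 and 0.58). In Degs2_KO it was 0.45, 0.24, -0.08 and -0.11. Its mean was -0.12 ± 0.60 in WT and 0.13 ± 0.27 in Degs2_KO (SD, n = 4 each), so the 2 groups differed by less than the spread between the WT libraries. On this log scale the mean antiviral level was 0.08 ± 0.38 in Degs2_KO and -0.06 ± 1.26 in WT (SD, n = 4), the opposite order to the fitted median of -0.16.

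**Figure D5:**
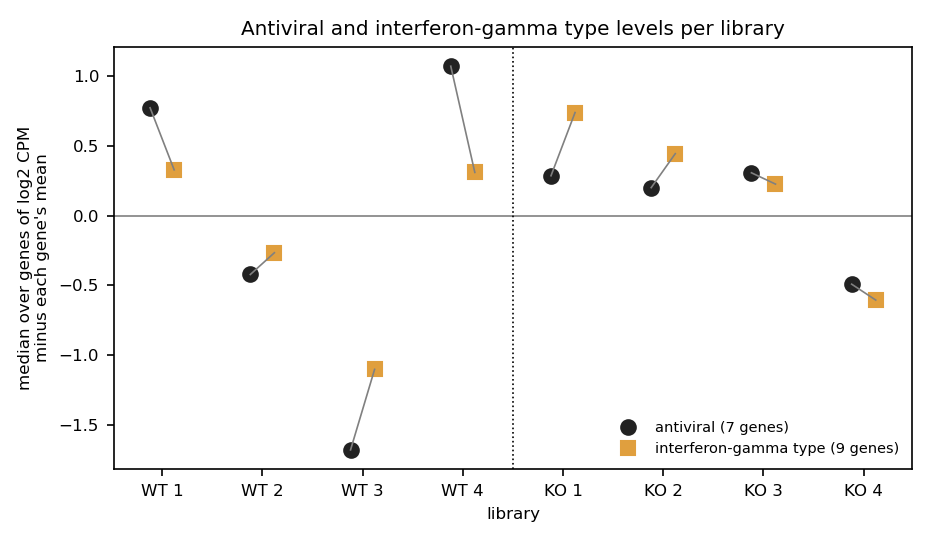
Level of the 7 antiviral (black circles) and 9 interferon-gamma type genes (orange squares) in each library, as the median over genes of log2 CPM minus each gene's mean; grey lines join the types within a library. Both types are lowest in WT replicate 3, at -1.68 and -1.10, and the circle lies above the square by most in WT replicate 4.

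Transcription factors of the pathway varied less than the antiviral genes. Irf1, induced by interferon gamma, was at 133, 129, 113 and 188 CPM in WT replicates 1 to 4 and at 174, 153, 168 and 136 CPM in Degs2_KO replicates 1 to 4, with a log2 fold change of 0.16 ± 0.16 (SE). Irf7, which amplifies the type I response, ranged wider, with 199.7, 100.5, 60.2 and 214 CPM in WT and 156, 119, 181 and 86.5 CPM in Degs2_KO. These values were high in WT replicates 1 and 4 and low in WT replicate 3, as for Ifit1, and its log2 fold change was -0.08 ± 0.39 (SE). Irf9 and Stat2, of the complex that binds the response element, had log2 fold changes of 0.0018 ± 0.18 and -0.04 ± 0.31 (SE).

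The sensors among the members detect foreign nucleic acid. Ifih1, which binds long double-stranded RNA, was the member that varied least, from 113 to 177 CPM in WT and from 113 to 152 CPM in Degs2_KO. Its log2 fold change was -0.03 ± 0.16 (SE), with a 95% interval from 0.766-fold to 1.26-fold. Zbp1, a sensor of left-handed double helices that can trigger cell death, was at 69.8, 48.1, 23.6 and 77.6 CPM in WT replicates 1 to 4 and 71.6, 64.2, 58.8 and 46.0 CPM in Degs2_KO replicates 1 to 4. The log2 fold change of Zbp1 was 0.14 ± 0.32 (SE). For Ddx58 and Dhx58, relatives of Ifih1, it was -0.03 ± 0.30 and -0.04 ± 0.31 (SE). The 4 sensors were all lowest in WT replicate 3 and highest in WT replicate 4.

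Isg15 is a ubiquitin-like protein attached to other proteins, and Usp18 removes it and damps the type I receptor. Isg15 was at 36.3, 19.2, 7.61 and 49.4 CPM in WT and at 36.9, 33.6, 34.2 and 17.3 CPM in Degs2_KO, with a log2 fold change of 0.12 ± 0.50 (SE). Usp18 was at 19.4, 8.07, 2.69 and 20.6 CPM in WT and 15.05, 13.5, 11.97 and 6.86 CPM in Degs2_KO, with a log2 fold change of -0.10 ± 0.54 (SE). Both had the antiviral order of libraries, with WT replicate 4 highest and WT replicate 3 lowest.

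Other effectors were of mixed direction, with 3 of 8 higher in Degs2_KO (median log2 fold change -0.05). Trim30a, of the tripartite motif family, lay between 19.2 and 55.1 CPM in WT and between 21.3 and 41.3 CPM in Degs2_KO. Rtp4, a chaperone of membrane receptors, lay between 14.5 and 49.999 CPM in WT and between 18.4 and 39.7 CPM in Degs2_KO. Rsad2, known as viperin, had the lowest fitted log2 fold change of the members, -0.42 ± 0.59 (SE). Bst2, which tethers budding virus to the cell surface, had the highest of this role, 0.30 ± 0.26 (SE), and Mx2, Ifi44, Ifi35 and Xaf1 lay between them.

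Parp14, Parp9 and Dtx3l attach ADP-ribose or ubiquitin to proteins and take part in the interferon response. Parp14 was at 137, 85.5, 85.5 and 124 CPM in WT and at 148, 109, 102 and 79.5 CPM in Degs2_KO, and Dtx3l lay between 76.9 and 155 CPM in WT and between 87.3 and 124 CPM in Degs2_KO. Their log2 fold changes were 0.02 ± 0.22 and -0.02 ± 0.21 (SE). These genes of high CPM had a median ratio of highest to lowest library of 1.99-fold, against 7.25-fold for the antiviral members. The chemokine Cxcl10, which draws T cells as Cxcl9 does, was at 2.46, 1.41, 0.77 and 2.91 CPM in WT and at 2.24, 4.33, 0.76 and 0.69 CPM in Degs2_KO. Its highest library, Degs2_KO replicate 2, was the highest for no other member. Socs1, the feedback inhibitor of the kinases at the receptor, lay between 1.31 and 5.09 CPM in WT and between 1.71 and 3.37 CPM in Degs2_KO.

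The interferon genes themselves were almost uncounted. Of 20 listed, 17 were at 0 in all 8 libraries, among them Ifnb1, Ifnl2 and Ifnl3. At this depth a count of 0 allows up to 3 fragments, or 0.0622 to 0.0948 CPM depending on the library, which covers counting error only. Ifng was counted with 4, 3, 0 and 4 fragments in WT replicates 1 to 4 and with 4, 5, 2 and 3 in Degs2_KO replicates 1 to 4. Ifnk, a type I interferon of epithelia, had 13 fragments over the 8 libraries and Ifna16 had 1. A difference between genotypes in these ligands was not detectable at this depth, and 0 of 20 passed the filter for testing.

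Receptors and kinases that carry the signal were steady. The 9 genes varied by a median of 1.32-fold between the highest and the lowest library, less than the 1.57-fold of all genes, and none had WT replicate 3 as its lowest. In Degs2_KO 2 were higher and 7 lower (median log2 fold change -0.03), and 0 of 9 had an unadjusted p under 0.05 by edgeR. Ifngr1 and Ifngr2, the chains of the interferon gamma receptor, had log2 fold changes of -0.14 ± 0.14 and -0.12 ± 0.11 (SE). Ifngr1 lay between 224 and 335 CPM in WT and between 221 and 295 CPM in Degs2_KO. Genes upstream of interferon production varied by a median of 1.42-fold over the 12 of 14 that were tested, of which 7 were higher and 5 lower (median log2 fold change 0.0065). The 2 with the smallest p were Mb21d1, which encodes the DNA sensor cGAS, at a log2 fold change of 0.22 ± 0.19 (SE), and Tlr3, a receptor for double-stranded RNA, at 0.09 ± 0.13 (SE).

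Among 43 other interferon-stimulated genes, 42 were tested, of which 22 were higher and 20 lower (median log2 fold change 0.0094), and 0 had an unadjusted p under 0.05 by edgeR. WT replicate 3 was the lowest library for 29 of the 42 (69.0%). Tor3a and Ifi27 had the smallest p of this list, with log2 fold changes of 0.21 ± 0.11 and -0.14 ± 0.10 (SE). Among 34 other genes known to be induced by interferon gamma, 31 were tested, of which 25 were higher and 6 lower (median log2 fold change 0.19), and 0 had an unadjusted p under 0.05 by edgeR. WT replicate 3 was the lowest library for 21 of the 31 (67.7%). Tgtp2, another Irg protein, was at 1.80, 0.83, 0.34 and 1.30 CPM in WT replicates 1 to 4 and at 4.70, 3.44, 2.13 and 0.53 CPM in Degs2_KO replicates 1 to 4, a log2 fold change of 1.33 ± 0.66 (SE). Ciita, the switch of MHC class II genes, was at 2.65, 1.10, 0.88 and 2.98 CPM in WT and at 7.92, 3.92, 4.88 and 1.09 CPM in Degs2_KO, with 1.22 ± 0.59 (SE). Both were above all WT libraries in Degs2_KO replicates 1 to 3 and low in Degs2_KO replicate 4, the order seen for Iigp1.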

How the data were processed

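RNA-seq was analysed from 8 libraries of mouse distal colon epithelial cells, 4 WT and 4 Degs2_KO. The authors deposited estimated counts of fragments per gene. Cuffdiff, Cufflinks 2.1.1, TopHat2 2.0.10 and cutadapt 1.9 are named, with mm10, per the submitters' processing notes; the sources used here give no order of steps, annotation or use of strand. Each library had been scaled: low values were multiples of 1 step, from 0.871 to 1.31, and 96.9% to 97.2% of values up to 100 were whole, within 0.02, after division by it. In 47 genes a value had the status FAIL or HIDATA, and all 119 such values were listed at 0; these genes, none a member, were left out. Estimated counts were rounded, filtered with filterByExpr (minimum count 10, minimum total 15), normalized with TMM and tested with the 2-sided quasi-likelihood F test of edgeR 4.0.16 (R 4.3.3), group as the only term, with Benjamini-Hochberg adjustment over 16132 genes at 0.05. The test was tried on simulated data first. Standard errors are the log2 fold change over the square root of F, and 95% intervals use the test's degrees of freedom. CPM were taken from the unrounded values; log2 CPM had a prior count of 2, except in the plot by library. Coordinates and exon lengths are from GENCODE M21 on GRCm38; promoters are RefSeq's on GRCm38.p6.

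Members and lists were chosen with earlier results of these data known. Genes were named by a rule. It takes the 3 members of highest level per length in the antiviral and the interferon-gamma type groups, members with an unadjusted p under 0.05 or with groups that do not overlap, the 3 of widest range with a mean of at least 1 CPM, and up to 2 of highest CPM in each other role. From each other list it takes up to 3 genes with an unadjusted p under 0.05 or, if there is none, the 2 of smallest p, with the interferon genes always. A gene that the rule takes is not reported here. Other genes named beside these were chosen after their values were seen. Alternatives were DESeq2 1.42.0 size factors and test, library totals, limma-trend (limma 3.58.1), no filter, a filter at 50 counts in total with 1 CPM throughout 1 group, a replicate block, a block on adjoining ID numbers, undone scaling, each library left out, WT replicate 1 and Degs2_KO replicate 3 left out together, wider groups, and a prior count of 0.5.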

Additional observations from a re-analysis of the deposited data

Results flagged for a closer look

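Values of the 39 members were checked for a library far from the other 3 of its group, in 78 groups of 4. In 4 of them Degs2_KO replicate 4 stood apart below the others; chance gives about 1 in 20 groups, and the members vary together, so the 4 are not independent. Ifit1, the RNA-binding antiviral protein, was at 25.4 CPM there, against 65.6 to 72.6 CPM in the other Degs2_KO libraries. Oasl2 was at 115.8 CPM against 186 to 201 CPM. Isg15 was at 17.3 CPM against 33.6 to 36.9 CPM. Rsad2 was at 5.94 CPM against 19.3 to 21.6 CPM. The same library had the second lowest lymphocyte and epithelial marker sums, 17.2 and 15739 CPM, and the lowest fibroblast sum, 1.29 CPM. The part of these cells in the values was not tested.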

How the results depend on the processing

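No setting gave a member an adjusted p under 0.05. Over all genes, deviations from the group means correlated at -0.42, 0.44, -0.56 and -0.10 between libraries of the same replicate number. For adjoining ID numbers the values were -0.42, -0.53 and 0.20. WT replicate 1 and Degs2_KO replicate 3, apart in colon position, had the highest value, 0.75, so these correlations cannot decide if either number pairs the libraries. The labels do not say what either marks. The replicate block gave 0 members with an unadjusted p under 0.05, as without it, and 99 genes in all against 183; its antiviral and interferon-gamma type medians were 0.11 and 0.41. The ID block (6 libraries) gave 10 members (Cxcl9, Gbp3, Ifi44, Igtp, Iigp1, Irf1, Irgm1, Irgm2, Isg15 and Oas1a), 1 of them antiviral and 6 of interferon-gamma type, against 79 of 16104 genes, medians of 0.41 and 0.49, and a difference of 0.081 between them. Without WT replicate 1 and Degs2_KO replicate 3, 1 member (Cxcl9), of interferon-gamma type, had an unadjusted p under 0.05, against 650 of 16214 genes (4.01%). With single libraries left out the count ranged from 0 to 3, and from 0 to 3 for the interferon-gamma type. Genes called over the whole table ranged from 133 to 782 at an unadjusted p, highest without WT replicate 1. DESeq2 called Degs2 (log2 fold change -1.063, adjusted p = 6.96e-07), while its adjusted p over the edgeR and limma fits lay between 0.42 and 1.0.

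Log2 fold changes that changed sign were as follows. Under the ID block they were 0.48 for Oasl2, 0.35 for Ifit1, 0.57 for Oas2, 0.34 for Irf7, 0.13 for Ifih1, 0.50 for Usp18, 0.24 for Trim30a, 0.32 for Rtp4, 0.18 for Dtx3l, -0.38 for Cxcl10 and 0.013 for Socs1. With limma-trend they were 0.15 for Oasl2, 0.040 for Ifit1, 0.090 for Oas2, 0.043 for Irf7, 0.23 for Usp18, 0.0054 for Trim30a, 0.069 for Rtp4, 0.016 for Dtx3l, -0.13 for Cxcl10 and 0.055 for Socs1. With the replicate block they were 0.16 for Oasl2, 0.062 for Ifit1, 0.090 for Oas2, 0.031 for Irf7, 0.21 for Usp18, 0.026 for Trim30a, 0.087 for Rtp4, 0.021 for Dtx3l, -0.12 for Cxcl10 and 0.050 for Socs1. Without WT replicate 1 and Degs2_KO replicate 3 they were 0.17 for Usp18, 0.07 for Rtp4, 0.0029 for Dtx3l and 0.43 for Socs1. With each library left out in turn, or the same 2 together, the values ranged from -0.077 to 0.25 for Oas1a, -0.36 to 0.38 for Oasl2, -0.58 to 0.15 for Ifit1, -0.074 to 0.39 for Irgm2, -0.72 to 0.37 for Oas2, -0.34 to 0.17 for Irf7, -0.10 to 0.13 for Ifih1 and -0.11 to 0.35 for Zbp1. They ranged from -0.20 to 0.53 for Isg15, -0.44 to 0.23 for Usp18, -0.24 to 0.33 for Trim30a, -0.28 to 0.28 for Rtp4, -0.14 to 0.19 for Parp14, -0.15 to 0.20 for Dtx3l, -0.61 to 0.52 for Cxcl10 and -0.31 to 0.43 for Socs1. The cause was not tested. Another size factor, library totals, undone scaling, DESeq2, either filter, wider groups and the other prior count changed no direction of a named gene they tested; the stricter filter kept 36 of 39 members. The median over all members ranged from -0.17 to 0.28 with single libraries left out.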

Other observations

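The genes below are not members and were chosen after their values were seen. Ifit1bl1, a relative of Ifit1, had means of 234 CPM in WT and 200.5 CPM in Degs2_KO, with a log2 fold change of -0.22 ± 0.33 (SE). It was highest in WT replicate 4 and lowest in Degs2_KO replicate 4. Lgals3bp, a secreted glycoprotein, had means of 287 and 299 CPM, highest in WT replicate 4 and lowest in WT replicate 3. The log2 fold changes of 3 immunoproteasome subunits, which interferon gamma induces, were above 0: Psmb8 with 0.46 ± 0.31, Psmb9 with 0.42 ± 0.24 and Psmb10 with 0.18 ± 0.17 (SE). The checkpoint ligand gene Cd274 went the other way, at -0.52 ± 0.29 (SE), with WT replicate 4 highest and Degs2_KO replicate 4 lowest. None of these 6 genes had an unadjusted p under 0.05.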
